A study of Drosophila melanogaster with 4 samples.

Results

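The 10 genes described here were grouped as hydrolases and a mucin of the fly midgut: the serine endopeptidases Jon65Aiii, Jon65Aiv, Jon25Bii, Jon99Cii, alphaTry, betaTry and epsilonTry, the aspartic endopeptidase Bace, the maltase Mal-A1 and the mucin-related gene Mur18B. All probe sets that name one of them were taken, 12 in all. Of these, 9 probe sets belong to 1 gene each and cover 9 of the 10 genes, out of 10843 genes with a probe set of their own. Jon99Cii has none of its own, and its 3 probe sets also name Jon99Ciii. The genes were selected on intensities and on differences between the sorted fractions in these same 4 samples, so those differences are described and not tested.

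The samples were 4 fractions of total RNA from Drosophila melanogaster embryo cell culture, each read on 1 array. The 2 Cha-negative samples, a and b, were cells left after fluorescence-activated sorting had removed cholinergic neurons carrying GFP, from cultures 3 to 5 days old; the labels do not name what drove the GFP. The 2 Gad1-negative samples, a and b, were cells left after a sort for neurons carrying dsRed1, a red fluorescent protein under a 2.1 kb promoter of Gad1, the gene of the GABA-making enzyme; no culture age is labelled. Whether a and b were separate cultures is not labelled, and p-values therefore measure only the spread between these samples, which may be technical. In such mixed samples, fewer cells of a type and less RNA per cell cannot be told apart.

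The midgut of the fly breaks food down with enzymes that its enterocytes secrete into the lumen. Jonah proteins are chymotrypsin-like serine endopeptidases and the Try genes code for trypsins; both families sit in tandem gene clusters. Maltases cut maltose and related sugars into glucose, and mucins are heavily glycosylated proteins of the secreted layers that line an epithelium. Many of these genes are switched on as midgut cells differentiate, under GATA-type transcription factors.

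The deposited values are intensities on a linear scale, which the authors had scaled so that the 2%-trimmed mean was 500.1 on every array. Below, values written as 2 against 2 give Cha-negative a and b first and then the Gad1-negative samples a and b. Array medians were 248 and 219 against 213 and 181. The floor used here was the 20th percentile of all values, 44.9, and 15.8% and 19.0% of probe sets lay under it, against 20.8% and 24.3%. The 3' to 5' ratio of the GAPDH control probe sets, a sign of RNA quality, came to 144 or more and 185 against 23.9 and 38.04. The BioB, BioC, BioD and Cre control probe sets had geometric means of 4440.7 and 7163.63 against 4004.75 and 1550.43, lowest in Gad1-negative b. The part of these controls in the values below was not tested. Differences are on the log2 scale, negative where Gad1-negative was lower, after values under the floor were set to it, with the standard error (SE) of a limma fit and 2 samples a group. The intensity filter kept genes whose mean reached the 40th percentile of probe sets, an intensity of 132. The number of arrays limits the precision.

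The gut epithelium genes Ssk, mesh and mex1 were read above the floor in all 4 samples, whereas the midgut regulator GATAe lay under it in Gad1-negative a. Ssk and mesh, parts of the smooth septate junction of the gut, had these values: Ssk read 9148.1 and 11876.8 against 3176.6 and 4576.9, and mesh 5288.8 and 13063 against 2891.4 and 4143.1. A further mesh probe set read 16.6, 55.6, 39.6 and 21.1 across the samples, near or under the floor. mex1, a gene of the midgut named after its values were seen, read 1890.6 and 6087.6 against 536.8 and 638.1 (-2.54). Of the same list, Tsp2A, a further junction gene, read 2272.9 and 1429 against 1280.6 and 1297.8 (-0.48), and mag, a lipase, 65.4 and 22.9 against 172.7 and 13.4 (0.70). GATAe, a GATA factor of the midgut, read 83.8 and 255.6 against 25.6 and 59.9, with a mean under the intensity filter. srp, a GATA factor of endoderm, haemocytes and fat body, read 352.4 and 101.3 against 647.1 and 205.6, and esg, a factor of midgut progenitors, 68.9 and 332.8 against 78.7 and 270.5. Of 6 midgut factors 5 were measured, 4 of them lower and 1 higher by at least 0.05, with a median difference of -0.18. By as much, 50.2% of all genes were lower and 39.2% higher. Only srp and esg passed the filter, and esg differed by -0.05 with overlapping groups. GATAe was lower without overlap. In the probe set used, nub read 249.9 and 32.4 against 11.2 and 6.5, under the floor in every sample except Cha-negative a. One of the 4, nub, differed by -1.24 in the probe set used and by 0.72 and 0.26 in its other probe sets. Of 8 brush border and junction genes 5 were measured, of which 4 were lower and 1 higher in Gad1-negative by at least 0.05, with a median difference of -1.26. Their summed intensity was 18665.8 and 32479.3 against 8058.1 and 10669.3.

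Bace had the widest separation of the 9 genes. It codes for an aspartic endopeptidase related to the mammalian beta-secretases that cut the amyloid precursor protein. Bace read 3284.2 and 1785.4 against 370.9 and 160.7. Both Cha-negative samples stood above both Gad1-negative samples, and the nearest values were far apart. The difference was -3.31 ± 0.64 (SE), a level 9.92-fold higher in Cha-negative. Only 8 of the 6994 genes above the intensity filter, Bace included, had a difference as low. As a rank within each array, Bace lay at the 96.6th and 92.3rd percentile of probe sets in Cha-negative and at the 64.0th and 47.2nd in Gad1-negative. With any 1 sample left out the difference ran from -3.91 to -2.71.

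**Figure D1:**
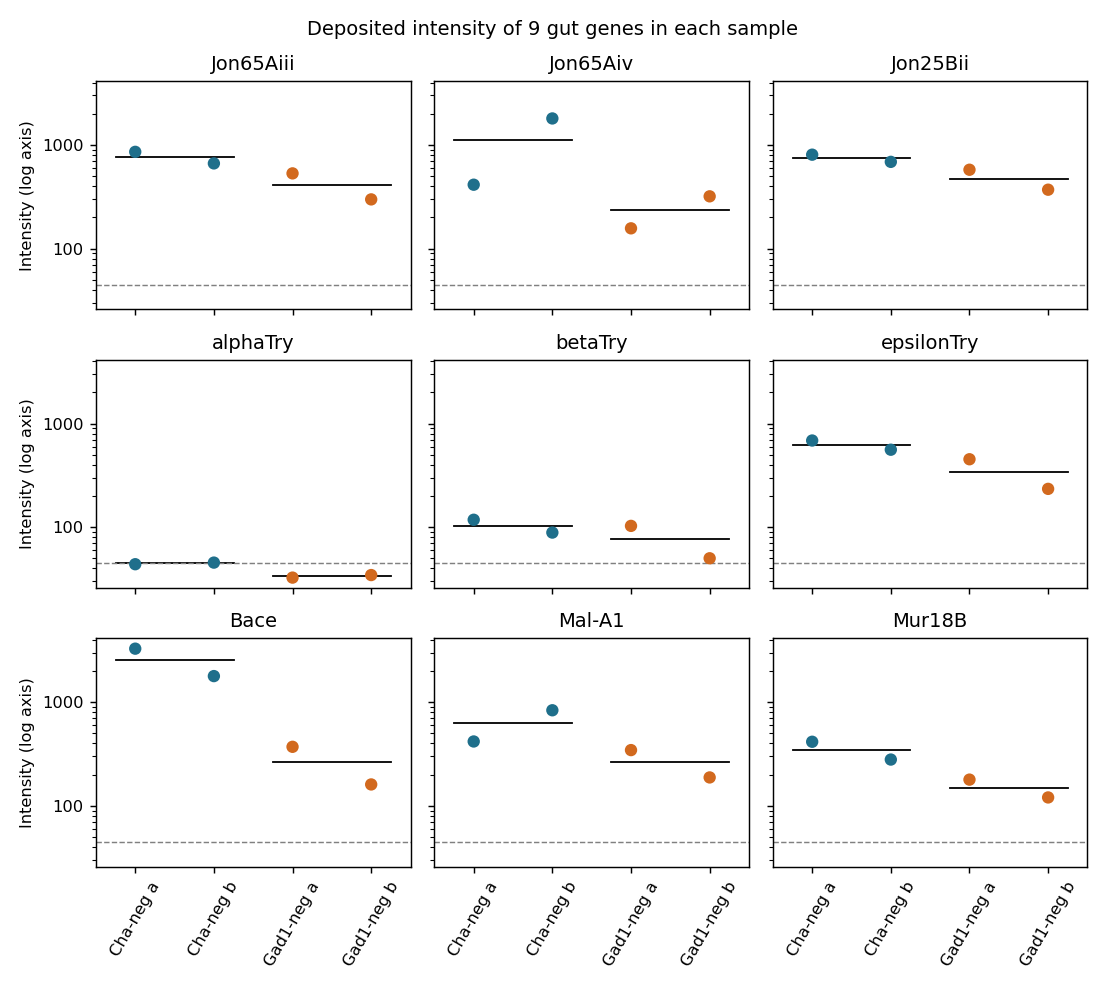
Deposited intensity on a log axis for the 9 genes with a probe set of their own, in each of the 4 samples; short black lines are group means and the dashed line is the floor of 44.9. Bace reads 3284.2 and 1785.4 against 370.9 and 160.7, betaTry overlaps between the groups, and alphaTry lies at the floor.

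Among the Jonah peptidases with a probe set of their own, Jon65Aiv stood high in 1 sample. Jon65Aiv read 413.1 and 1800.9 against 156.7 and 319.1. Cha-negative b was 4.36-fold above Cha-negative a, and the groups did not overlap. The difference was -1.95 ± 0.80 (SE). It was -0.89 without Cha-negative b and -3.01 without Cha-negative a. Jon65Aiii, its neighbour on the genome, read 857.4 and 663.2 against 531.3 and 298.1. Here Cha-negative a was the highest sample and Gad1-negative b the lowest, and the difference was -0.92 ± 0.57 (SE). Jon25Bii read 805.1 and 686.3 against 576.1 and 369.7, in the same order of samples. Its difference was -0.69 ± 0.55 (SE). Without Gad1-negative b, Jon65Aiii differed by -0.51 and Jon25Bii by -0.37.

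The 3 probe sets shared by Jon99Cii and Jon99Ciii, which lie next to each other on the genome, did not give the same picture. Probe set 143339_i_at read 3640.8 and 375.6 against 205.4 and 111.9. Probe set 143340_f_at read 1215.9 and 786.3 against 287.3 and 343.1. In both the groups did not overlap, with differences of -2.95 and -1.64. Probe set 143338_f_at read 1120.3 and 107.1 against 227.7 and 348.5, and Cha-negative b was its lowest sample. Its difference was -0.30 with overlapping groups. The gap between the Cha-negative samples was 10.5-fold in 143338_f_at, 9.69-fold in 143339_i_at and 1.55-fold in 143340_f_at. None of these values can be assigned to Jon99Cii alone, so the gene stays out of the counts below.

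**Figure D2:**
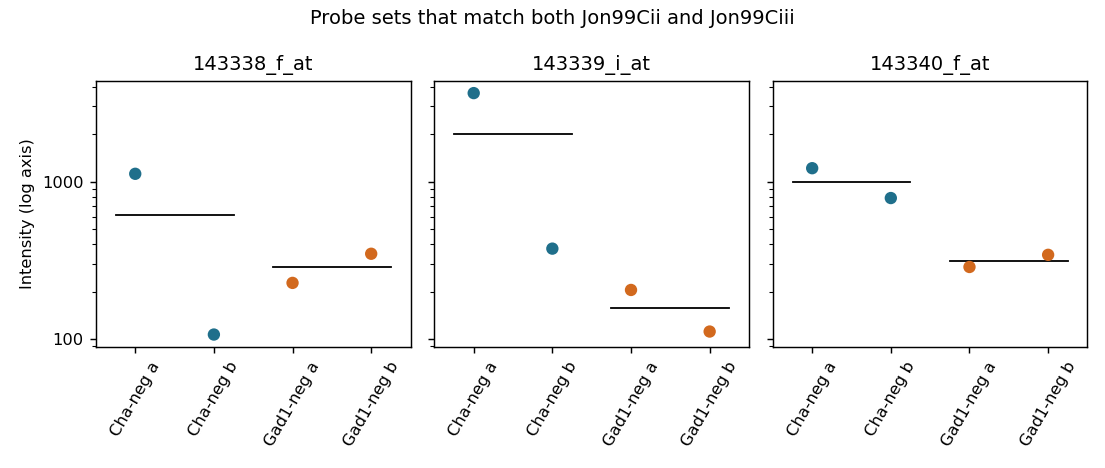
Deposited intensity on a log axis of the 3 probe sets that name both Jon99Cii and Jon99Ciii, in each sample, with group means as black lines. Cha-negative a is the highest sample in all 3 (1120.3, 3640.8 and 1215.9), while Cha-negative b runs from 107.1 to 786.3.

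The trypsins ranged from the floor to well above the filter. epsilonTry read 685.8 and 559.1 against 452.4 and 234.2. The groups did not overlap, with Gad1-negative b lowest, and the difference was -0.93 ± 0.59 (SE), or -0.45 without Gad1-negative b. betaTry read 117.9 and 88.7 against 102.9 and 50.1, so Gad1-negative a lay between the Cha-negative samples. Its group means were 103 ± 20.6 and 76.5 ± 37.3 (SD, n = 2), under the filter. Without Gad1-negative b its difference was 0.01, and without Gad1-negative a it was -1.03. alphaTry read 43.9 and 45.5 against 32.6 and 34.5, under the floor in every sample except Cha-negative b, so no fold is given for it. Trypsin copies in this cluster are closely related, and whether a probe set here also reads a related copy was not tested.

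Mal-A1, a maltase, was highest in Cha-negative b. It read 417.6 and 835.6 against 344.8 and 187.8. The groups did not overlap, though Cha-negative a and Gad1-negative a were close. The difference was -1.21 ± 0.64 (SE), and it was -0.71 without Cha-negative b and -0.78 without Gad1-negative b. Mur18B read 414.9 and 279.4 against 178.9 and 120.4, with no overlap. Its difference was -1.21 ± 0.68 (SE), a level 2.32-fold higher in Cha-negative, and it ran from -1.50 to -0.93 with any 1 sample left out.

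Over the 9 genes with a probe set of their own, the median difference was -0.93, and over all 10843 genes it was -0.05. All 9 had a negative difference on these data, alphaTry by 0.01 at the floor, where 52.8% of all genes did. Of the 9, 4 were at least 2-fold lower in Gad1-negative, against 12.9% of all genes. In 8 of the 9 the groups did not overlap and Gad1-negative was lower, against 24.4% of all genes, and these 8 include alphaTry, whose values lie about the floor. The genes were chosen with this contrast known, so these counts carry no support of their own. Limma called 0 of the 6994 genes above the filter at an adjusted p under 0.05 (0%), and none of the 7 genes tested here was among the called. By the same fit 345 genes (4.93%) had an unadjusted p under 0.05.

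**Figure D3:**
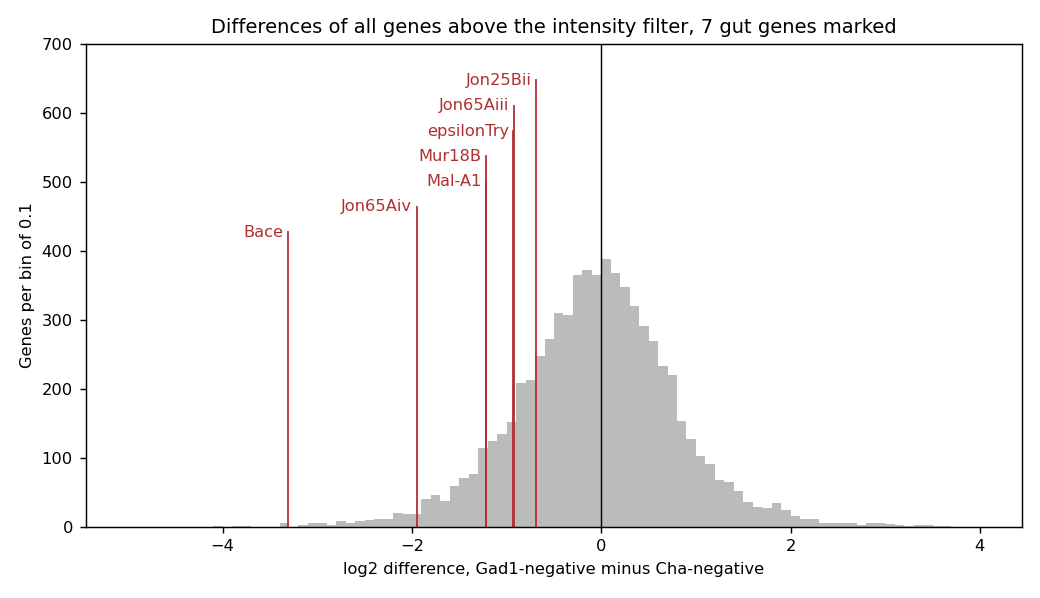
Histogram of the log2 difference between the fractions for the 6994 genes above the intensity filter, in bins of 0.1, with the 7 gut genes above the filter marked by red lines whose height has no meaning. The marked genes run from -3.31 (Bace) to -0.69 (Jon25Bii).

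The spread between samples of the same group is described beside that of all genes. In Cha-negative, 2 of the 9 genes had a gap over 2-fold between a and b, Jon65Aiv at 4.36-fold and Mal-A1 at 2.001-fold, where 30.7% of all genes did. In Gad1-negative there were 3, Bace at 2.31-fold, betaTry at 2.05-fold and Jon65Aiv at 2.04-fold, where 32.3% of all genes did. For genes above the filter the median gap was 1.53-fold in Cha-negative and 1.66-fold in Gad1-negative. Jon25Bii, at 1.17-fold and 1.56-fold, had the narrowest gap of the tested 7 in Cha-negative, and Mur18B, at 1.49-fold in both groups, the narrowest in Gad1-negative.

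In 5 of the 9 genes the samples stood in the order of the array medians, from Cha-negative a through Cha-negative b and Gad1-negative a to Gad1-negative b. They were Jon65Aiii, Jon25Bii, epsilonTry, Bace and Mur18B; 10.1% of all genes had this order, which was looked for after the values were seen. Gad1-negative b was the lowest sample in 7 of the 9, against 38.5% of all genes. Since the order puts both Cha-negative samples first, it overlaps with the contrast by which the genes were chosen. With each array centred on its median, Bace differed by -3.06, Jon65Aiii by -0.68 and Jon25Bii by -0.44, and the median of the 9 genes by -0.68. The median of all genes above the filter moved too, from -0.04 to 0.20. The median of the 9 genes less that median was -0.88 before centring and -0.89 after. The part of the array level in these differences was not tested further.

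**Figure D4:**
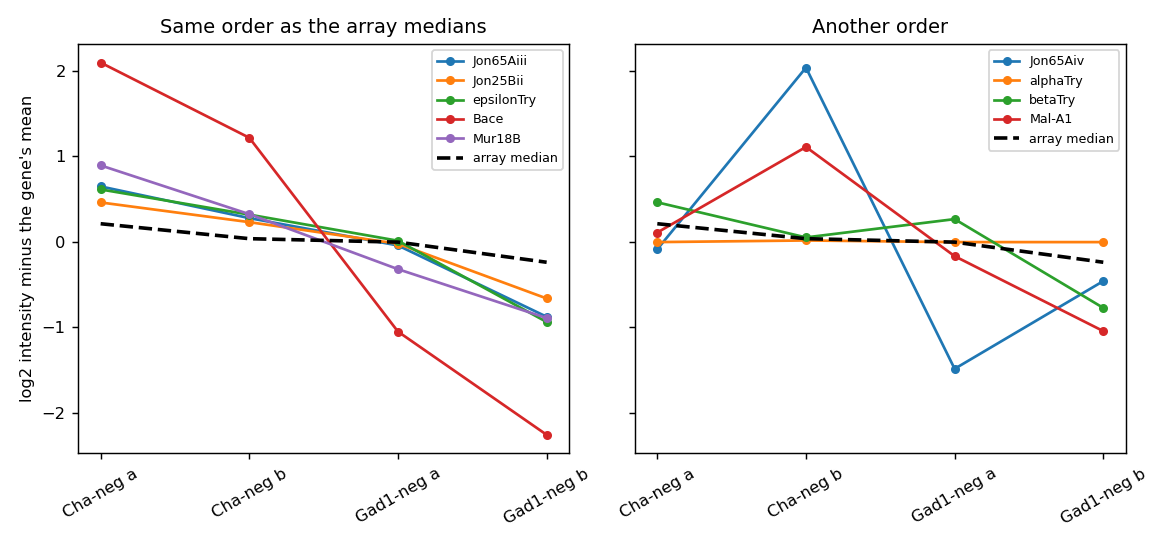
log2 intensity minus the gene's own mean in each sample, for the 5 genes whose samples follow the order of the array medians (left) and the other 4 (right); lines join the values of 1 gene, and the dashed line is the array median treated the same way. Bace spans far more than the array median, and Jon65Aiv and Mal-A1 peak in Cha-negative b.

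The most similar profiles among the 6994 genes above the filter came from genes of many kinds. Likeness was measured as the root mean square gap between centred log2 values over the 4 samples. Nearest to Bace was Npc2e, of a family of sterol-binding proteins, with a gap of 0.15 and readings of 2311 and 1173.9 against 208.4 and 119.8. Next came Ir93a, an ionotropic receptor, with a gap of 0.22. Nearest to Jon65Aiv were Or59a, an odorant receptor, at 0.22, and Ag5r, an antigen 5-related gene, at 0.24. The other 5 tested genes had closer partners, with gaps from 0.020 to 0.093. They were CG7140 (0.020) and CG14218 (0.034) for Jon65Aiii, CG13170 (0.035) and corn (0.039) for Jon25Bii, and Tlk (0.036) and CG4017 (0.040) for epsilonTry. Mal-A1 was nearest to CG5611 (0.092) and flfl (0.093), and Mur18B to the gustatory receptor Gr8a (0.032) and to Srpk79D (0.069). With 4 samples such closeness is a description only.

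In the wider digestive families, many genes that were not chosen lay under the intensity filter, so the medians below are not ranked. Of the genes not chosen, 6 of 11 Jonah peptidases, 2 of 7 trypsins, 3 of 12 maltases and amylases and 9 of 12 mucins passed the filter. Of 16 Jonah genes 14 had a probe set of their own; 11 were lower in Gad1-negative by at least 0.05, 0 were higher and 3 lay within 0.05, where 50.2% of all genes were lower and 39.2% higher by as much. Without the chosen genes 11 remained, 8 of them lower and 0 higher, with a median of -0.17. The other 3 were under the floor in at least 3 samples. Only 1 of the 11 was lower without overlap of the groups, against 24.4% of all genes. Centring each array on its median moved the median of all genes above the filter by 0.25, more than the size of this -0.17. Jon74E read 731.2 and 489.5 against 735.3 and 387.1 (-0.17 ± 0.59, SE), and Jon25Bi 448.9 and 202.1 against 334.5 and 142.6 (-0.46 ± 0.75). In both the groups overlapped. Of 12 trypsins 10 were measured, and the 7 not chosen had a median of -0.32, with 5 lower and 1 higher. lambdaTry read 291.2 and 378.9 against 202.7 and 167.6 (-0.85 ± 0.63), and etaTry 243.7 and 247.7 against 210.8 and 67.8 (-1.04 ± 0.84). In neither did the groups overlap. The higher one was thetaTry, under the filter and named after its values were seen, at 45.6 and 77.7 against 120.8 and 130.8 (1.08).

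Of the aspartic peptidases other than Bace 7 were measured, 3 lower and 2 higher. Only cathD passed the filter and 3 lay under the floor in at least 3 samples, so no median is given. Lower and higher here mean by at least 0.05, where 50.2% of all genes were lower and 39.2% higher. cathD, the lysosomal cathepsin D, read 2013.1 and 3695.4 against 2333.1 and 3512.2 (0.07 ± 0.59), so the groups overlapped. CG33128, under the filter, read 471.9 and 96.1 against 58.8 and 104.7. CG17134, named after its values were seen, read 131.1 and 123 against 18.2 and 14.1, with no overlap and with both Gad1-negative samples under the floor. The 12 maltase and amylase genes other than Mal-A1 had a median of -0.67, with 7 lower and 4 higher. Mal-A4 read 569.1 and 834.7 against 497.7 and 398.3 (-0.63 ± 0.54), with no overlap. Amy-d, an amylase, read 736.1 and 106.9 against 194.6 and 40.5 (-1.59 ± 1.16), with overlap. The 12 mucins other than Mur18B had a median of -0.25, with 6 lower and 3 higher, a share of lower genes like that of all genes. The other 3 lay under the floor in every sample. Muc26B read 6988.1 and 8952.3 against 416.2 and 2393.9 (-2.99 ± 0.83) without overlap, and Muc55B 3548.9 and 872 against 957 and 215.9 (-1.95 ± 0.91) with overlap. Limma called 0 genes of any of these 5 lists at an adjusted p under 0.05.

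**Figure D5:**
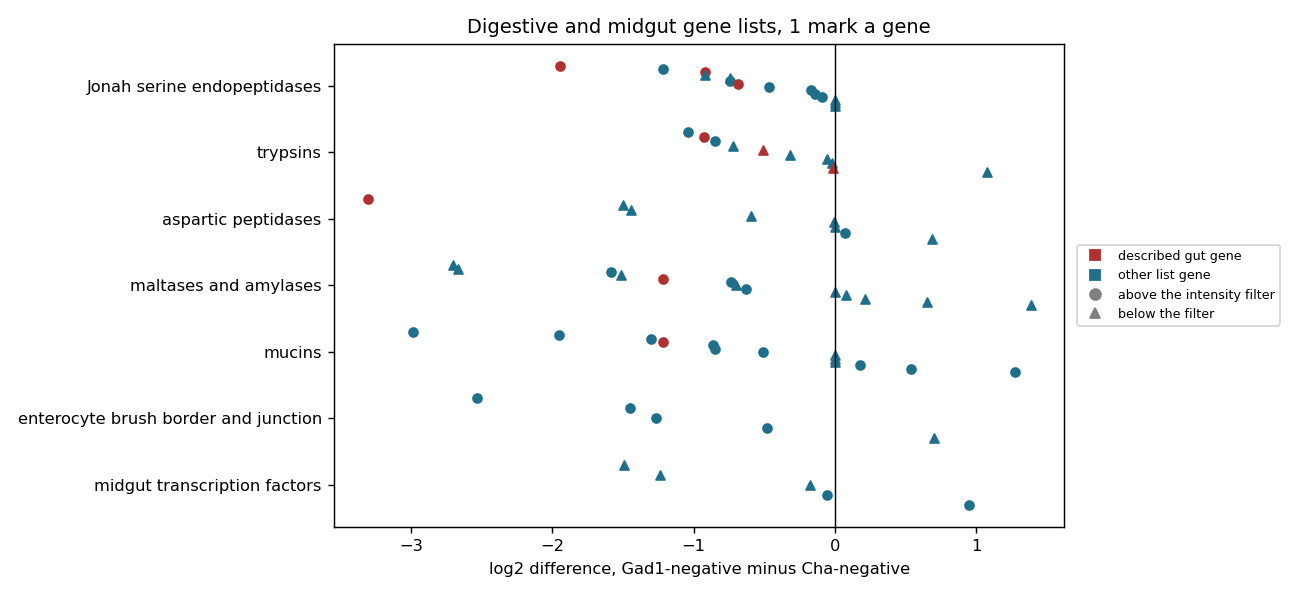
log2 difference between the fractions for each measured gene of 5 digestive lists and 2 midgut lists; red marks are the described genes, blue marks the other list genes, and triangles lie under the intensity filter. Bace lies at -3.31 and Muc26B, the lowest of the mucins, at -2.99; differences of genes near the floor are drawn toward 0.

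Several of the genes lie in clusters, and their neighbours can be read beside them; the order of genes is that of the RefSeq annotation of the Release 6 assembly. Jon65Aiv and Jon65Aiii sit between CG6462 and Jon65Aii. CG6462 read 356.5 and 132.1 against 85.7 and 80.9 (-1.38), and Jon65Aii 276.2 and 203.8 against 232 and 33.7 (-1.22), the last under the floor. Jon65Ai, next along, read 299.4 and 197.9 against 272.6 and 191.3 (-0.09). Differences in this cluster therefore ran from -1.95 at Jon65Aiv to -0.09 at Jon65Ai. Mal-A1 is followed by Mal-A2 and Mal-A3, both under the filter in their mean. Mal-A2 read 273.1 and 299.2 against 39.7 and 19.4, and Mal-A3 163.6 and 659.3 against 56.8 and 25.4. In both, as in Mal-A1, the groups did not overlap.

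Next to Bace lies Dh31, the gene of a diuretic hormone peptide made by enteroendocrine cells and neurons. It read 3539.2 and 26437.8 against 2007.1 and 2396.5 (-2.14 ± 0.92, SE). Dh31 was highest in Cha-negative b, whereas Bace was highest in Cha-negative a. On the other side CG13096 read 42 and 331 against 452.1 and 470.8 (1.92). Muc18B, beside Mur18B, read 263.9 and 359.8 against 25.7 and 347.1, with overlapping groups. Jon25Biii, beside Jon25Bii, lay under the floor in all 4 samples. The nearest genes with a probe set, up to 2 on either side of each described gene and with up to 5 others between, came to 28. Of these 21 had a negative and 6 a positive difference, where 52.8% of all genes were negative, and their median was -0.39. They include genes of the families described above, such as Jon65Aii, Mal-A2 and Muc18B, and so are not a separate reading. Some of the negative differences were of genes near the floor, such as trp at -0.01. A shift of the genome regions was not tested.

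Markers of other tissues, and of the enteroendocrine cells of the gut, moved in part along the same groups. Of 6 salivary gland genes, 5 were lower in Gad1-negative by at least 0.05 and 0 higher. By as much, 50.2% of all genes were lower and 39.2% higher. Only Sgs7 and Sgs8 passed the filter. The summed intensity of the 6 was 1431.1 and 2114.4 against 740.9 and 223.8, with Sgs4 under the floor in every sample. Sgs7 read 288.9 and 1617.8 against 125.3 and 45.4 (-3.18 ± 0.97) without overlap, and Sgs8 825.4 and 354.5 against 507.7 and 95.7 (-1.30 ± 0.89) with overlap. Sgs3 and Sgs5, counted as lower, were each under the floor in 3 samples. Of 6 enteroendocrine genes 4 were measured, 3 of them lower and 1 higher. Of the 4, 2 were lower without overlap of the groups, against 24.4% of all genes. Dh31, 1 of the 4, is also made by neurons, so the list cannot be credited to gut cells alone. The sum of the 4 was 6993.5 and 50490.7 against 4284.6 and 6096.4, by far the highest in Cha-negative b. Of 5 muscle genes 4 were measured, 1 lower and 2 higher, and their sum was 2701.2 and 1607.9 against 4793.2 and 8901.6, higher in Gad1-negative. Mlc2, a myosin light chain, made up most of the Gad1-negative sums at 4097.6 and 7432.4. Prm was higher too, at 73.3 and 52.2 against 377.6 and 797.2 (3.15), without overlap. A further probe set of up, a troponin T, went the other way at 2244.1 and 127.6 against 54 and 19 (-3.44). Sums of the neuron, glia, haemocyte, fat body and Malpighian tubule lists overlapped between the groups. Their part in the values of the gut genes was not tested.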

How the data were processed

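One deposited table of intensity values, linear and with a single value for each probe set, covered 4 samples in 2 groups. The 2%-trimmed means of its columns are equal, so the authors had scaled each array; the software is not given in the sources used here. Probe set names follow a 1-colour Affymetrix design. Of 14010 probe sets, 44 were array controls, 12442 named 1 gene, 327 several and 1197 none, and 49 gene identifiers were not in the RefSeq table. For genes with several probe sets the brightest on average was used. A floor at the 20th percentile of the table (44.9) was applied before log2. The test took genes whose mean reached the 40th percentile of probe sets (log2 7.05, intensity 132).

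Limma 3.58.1 (R 4.3.3) was fitted with lmFit and a trended eBayes. Tests were two-sided, adjusted by Benjamini-Hochberg, with 2 residual degrees of freedom. The code was checked on simulated data, where recovery of calls was required only at a spread smaller than that of these arrays. Python 3.11.15, pandas 2.3.3 and matplotlib 3.10.9 made tables and figures. The genes, lists and tests were chosen with earlier results of these data known. Named are the chosen genes, the 2 brightest other genes of each list described gene by gene, genome neighbours and the 2 nearest profiles. GATAe, mex1, Tsp2A, mag, nub, CG17134, up, Sgs3, Sgs4, Sgs5 and thetaTry were named after their values were seen. Alternatives were other scalings, floors and filters, an offset, averaging all probe sets of a gene, other fits, the replicate letter as a block, and leaving out each sample. Promoter, protein and probe sequences were not used here, so the planned motif search was not run.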

Additional observations from a re-analysis of the deposited data

How the results depend on the processing

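Limma called 0 genes at an adjusted p under 0.05 on all 4 samples and under each alternative, and 0 at an adjusted p under 0.10; at an unadjusted p under 0.05 the count ran from 213 (filter at the 60th percentile) to 717 (no filter), against 345 as reported. With the replicate letter as a block there were 602, again with 0 past adjustment; the letters are not said to pair samples, and their deviations correlated across genes at 0.25. The median difference of the 9 genes, -0.93, was -0.84 after quantile normalization and -0.68 with each array centred on its median. That centring moved the median of all genes above the filter by 0.25 and the share of them lower in Gad1-negative from 52.3% to 39.1%, and it shifts every gene of an array alike. Leaving out 1 sample moved their median from -0.51 (without Gad1-negative b) to -1.40 (without Gad1-negative a). The difference of alphaTry, which lies at the floor, was 0.03 after quantile normalization, -0.41 with the floor at the 10th percentile and -0.18 with the offset. No other single gene moved by more than its spread between replicates under a changed scaling, floor or offset. Without Cha-negative a alphaTry differed by -0.02, a shift equal to that spread. The block and the mean of probe sets leave these 9 differences as they are, and leaving out 1 of 2 samples cannot move a difference by more than that spread. The count of genes lower in Gad1-negative was 8 or 9 throughout. With 2 arrays a group, an adjusted p or its absence says little of any single gene, and values near the floor have no order.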
